A study of Mus musculus with 12 samples.

Results

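Cell cycle genes were followed through 12 bulk RNA libraries of newborn mouse cortex (postnatal day 0). The set held 35 of the 51912 gene lines counted: 11 genes of the G1/S step and of DNA replication, and 24 genes of G2 and mitosis, chosen by name from a list of genes known for these roles. Of the 35 members, 23 passed the filter on low counts and were tested, 10 of the 11 S phase genes and 13 of the 24 G2 and mitosis genes. Both genes for the replacement histone H3.3, H3f3a and H3f3b, were deleted by Emx1-Cre in 4 libraries (dKO-E) and by Neurod6-Cre in 4 libraries (dKO-N), and 4 libraries were labelled control, with no statement of the alleles these carried. As background, Emx1-Cre is active in the dividing progenitors of the dorsal telencephalon and is inherited by their neurons and glia, whereas Neurod6-Cre is active in newborn excitatory neurons, which have left the cell cycle. Bulk cortex also holds cells outside both Cre lineages, among them interneurons, blood vessels and microglia. By its title, the study concerns the H3.3 that builds up in young cortical neurons after their last division. Separate animals are not named in the labels for the libraries of a group, and p-values then measure only how far these libraries scatter, in part perhaps for technical reasons.

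As background, a dividing cell copies its DNA in S phase, under E2F factors released when cyclin-dependent kinases phosphorylate RB, and then builds a spindle and separates its chromosomes in mitosis. Transcripts of the replication genes peak around S phase and those of the mitosis genes in G2 and mitosis, so both groups are low in cells that have left the cycle. In the newborn cortex they come from the last radial glia and intermediate progenitors, from dividing glial precursors and from dividing vascular and immune cells, while the neurons that fill the tissue do not divide. In bulk RNA, fewer cells of a type and less RNA per cell cannot be told apart.

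The counts assigned to genes numbered 1452515 to 2503581 a library in dKO-E, from 722080 to 3502017 in dKO-N and from 1974975 to 3083599 in the libraries labelled control. Levels are given in CPM (counts scaled to a common library size, with TMM factors). The floor of 3 counts stood for 0.857 to 4.15 CPM by library totals, without TMM factors. A single library, dKO-N 4, held 58.2% of all dKO-N counts. Levels of the targeted H3f3a were 30.0, 28.4, 25.8 and 22.9 CPM in dKO-E libraries 1 to 4, 36.7, 30.8, 22.1 and 37.8 CPM in dKO-N libraries 1 to 4, and, among those labelled control 1 to 4, 17.7, 117, 16.4 and 121 CPM. The libraries labelled control 1 and control 3 thus had less H3f3a RNA than any knockout library, contrary to how they are labelled. The other targeted gene, H3f3b, had 170, 176, 180 and 167 CPM in dKO-E, 146, 117, 113 and 111 CPM in dKO-N, and 121, 76.7, 143 and 84.2 CPM in the libraries labelled control, so its RNA did not mark the knockouts either. Its level was higher in dKO-E than in the libraries labelled control (log2 fold change 0.69 ± 0.14 SE, edgeR adjusted p = 0.000707). Which part of each gene was deleted is not given in the sources used here. Transcripts of 4 Y-linked genes together reached 404 and 153 CPM in dKO-E 3 and dKO-E 4 and stayed at or below 1.6 CPM in the other 10 libraries. Results below are given with the libraries as labelled, and the call of each member past the test is also given without the libraries labelled control 1 and 3.

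Promoters of 30 members were read from RefSeq on GRCm38.p6, each 250 bases before to 50 bases after the start of the gene, and were searched on both strands for short motifs known from human and mouse cell cycle promoters. The CHR element TTTGAA, known as a contact of the MuvB core of repressor and activator complexes on late cell cycle genes, was found in 14 of 20 G2 and mitosis genes and in 1 of 10 S phase genes, against 17.9% of all 32851 promoters in the same table. Members are counted as genes, and Mcm7 and Uhrf1, with more than 1 promoter each, count if any of these held the motif. The shares of all promoters are per promoter, so the 2 measures differ. Its variant TTTAAA was found in 6 of 20 and in 4 of 10, against 13.2% of all promoters. The CCAAT box, the contact of NF-Y, was found in 16 of 20 and in 8 of 10, against 37.4%. Of the E2F motifs, TTCCCGC was found in 0 of 20 G2 and mitosis genes and in 3 of 10 S phase genes, against 4.6% of all promoters, and TTGGCGC in 3 of 20 and in 4 of 10, against 2.5%. These are matches of letters and not measured binding sites, and a window without a match shows only that these letters are not in it. The promoters below are those of the 4 members past a test and, for contrast, those of the mitosis gene Mki67 and the replication gene Mcm3. Motif matches are in capitals, read 5′ to 3′ along the gene's strand, so that a match on the other strand appears as its reverse complement.
Hmgb2 promoter, chr8:57511593-57511892, plus strand: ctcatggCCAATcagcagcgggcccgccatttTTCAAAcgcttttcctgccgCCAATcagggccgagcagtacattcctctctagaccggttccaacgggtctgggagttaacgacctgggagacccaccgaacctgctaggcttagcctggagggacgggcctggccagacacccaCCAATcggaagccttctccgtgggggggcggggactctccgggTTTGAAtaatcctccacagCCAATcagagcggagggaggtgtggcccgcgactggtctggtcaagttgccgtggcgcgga
Cenpf promoter, chr1:189688037-189688336, minus strand: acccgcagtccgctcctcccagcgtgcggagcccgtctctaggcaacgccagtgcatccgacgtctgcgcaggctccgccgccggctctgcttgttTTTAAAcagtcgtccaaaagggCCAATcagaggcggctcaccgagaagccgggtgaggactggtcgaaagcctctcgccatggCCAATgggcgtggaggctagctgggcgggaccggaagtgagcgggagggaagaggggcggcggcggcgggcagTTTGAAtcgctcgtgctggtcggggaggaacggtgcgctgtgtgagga
Mki67 promoter, chr7:135716330-135716629, minus strand: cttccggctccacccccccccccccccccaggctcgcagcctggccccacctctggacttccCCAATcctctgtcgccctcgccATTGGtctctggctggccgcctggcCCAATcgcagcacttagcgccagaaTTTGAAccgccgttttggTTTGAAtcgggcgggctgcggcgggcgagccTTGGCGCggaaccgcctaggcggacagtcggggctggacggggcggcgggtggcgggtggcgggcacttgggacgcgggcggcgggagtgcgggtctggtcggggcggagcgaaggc
Rrm2 promoter, chr12:24708004-24708303, plus strand: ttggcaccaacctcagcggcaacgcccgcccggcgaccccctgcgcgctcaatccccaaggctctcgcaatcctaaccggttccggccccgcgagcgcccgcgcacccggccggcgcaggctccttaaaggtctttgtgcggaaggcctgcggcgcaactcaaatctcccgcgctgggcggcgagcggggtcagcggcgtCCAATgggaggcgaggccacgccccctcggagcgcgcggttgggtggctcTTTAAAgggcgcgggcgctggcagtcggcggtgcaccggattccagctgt
Mcm3 promoter, chr1:20820263-20820562, minus strand: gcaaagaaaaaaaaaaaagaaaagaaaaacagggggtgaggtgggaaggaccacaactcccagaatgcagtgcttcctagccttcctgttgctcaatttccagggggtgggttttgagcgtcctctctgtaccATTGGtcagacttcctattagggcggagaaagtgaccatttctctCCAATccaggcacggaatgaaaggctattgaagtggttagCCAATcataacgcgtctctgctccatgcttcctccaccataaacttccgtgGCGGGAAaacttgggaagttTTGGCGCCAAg
Tacc3 promoter, chr5:33657878-33658177, plus strand: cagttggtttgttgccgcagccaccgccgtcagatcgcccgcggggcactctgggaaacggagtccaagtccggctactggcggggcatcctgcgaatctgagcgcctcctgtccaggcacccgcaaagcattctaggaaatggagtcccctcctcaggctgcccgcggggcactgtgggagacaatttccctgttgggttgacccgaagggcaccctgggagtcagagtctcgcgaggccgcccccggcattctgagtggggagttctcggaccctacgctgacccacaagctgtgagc
The Hmgb2 promoter held 2 CHR elements and 4 CCAAT boxes, and the Cenpf promoter 1 CHR element, 1 variant and 2 CCAAT boxes. In the Mki67 promoter there were 2 CHR elements, 3 CCAAT boxes and 1 E2F motif, and in the Rrm2 promoter 1 CHR variant and 1 CCAAT box. Mcm3 held 3 CCAAT boxes and 3 E2F motifs, 2 of which overlap, and Tacc3 held none of the motifs searched.

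Few of the tested cell cycle genes passed the test in either knockout, 8.7% of the 23 in each. In dKO-E against the libraries labelled control, 2 of 23 tested members rose (Hmgb2 and Tacc3) and 0 fell, where the same edgeR call was made for 20.2% of all 11076 genes tested, 10.1% in the higher direction. In dKO-N against the libraries labelled control, 2 of 23 rose (Rrm2 and Cenpf) and 0 fell, where 11.3% of all genes were called, 5.04% in the higher and 6.29% in the lower direction. At an unadjusted p under 0.05, 4 members were higher and 0 lower in dKO-E, and 7 were higher and 0 lower in dKO-N, and DESeq2 too called 0 members lower in either. Neither count of rises stands clear of its background. Fold changes leaned upward without passing the test: 16 of 23 were positive in dKO-E, with a median log2 fold change of 0.19 against 0.007 over all genes, and 19 of 23 were positive in dKO-N, with a median of 0.38 against 0.014. Both comparisons use the same 4 libraries labelled control, so their directions are not independent. The members that were not called ran from -0.41 to 0.59 in dKO-E (adjusted p 0.125 to 0.996) and from -0.27 to 0.88 in dKO-N (adjusted p 0.0641 to 0.948). The upper ends of the single-gene 95% intervals of these members lay between 1.16-fold and 2.43-fold in dKO-E and between 1.31-fold and 3.07-fold in dKO-N, which are the largest rises that these intervals allow. With library totals in place of TMM scaling, the median of all genes in dKO-E moved to 0.14, 22 of 23 members were positive and their median was 0.32. Under that scaling 73.9% of all dKO-E calls were higher (50% with TMM), 57.8% of all dKO-N calls (44.5% with TMM) and 65.4% of all calls between dKO-E and dKO-N (45.5% with TMM).

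**Figure D1:**
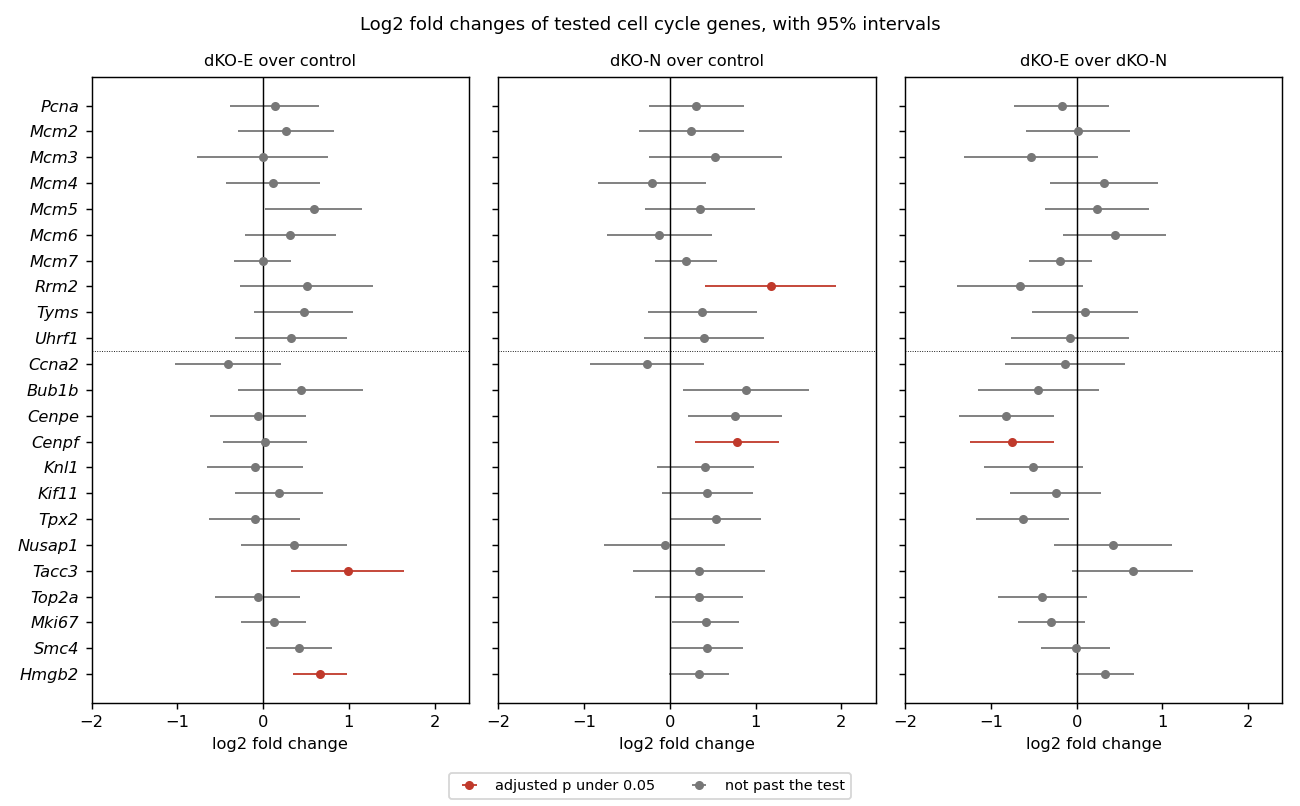
Log2 fold change (x axis) of each of the 23 tested cell cycle genes (y axis, 10 S phase genes above the dotted line, 13 G2 and mitosis genes below it) in dKO-E over control, dKO-N over control and dKO-E over dKO-N, with single-gene 95% intervals and calls at an edgeR adjusted p under 0.05 in red. Hmgb2 and Tacc3 are called in dKO-E, Rrm2 and Cenpf in dKO-N, and Cenpf between the knockouts; most points in both comparisons with control lie right of 0.

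The S phase genes leaned upward in both knockouts, by little. Their summed level was 122, 109, 118 and 109 CPM in dKO-E libraries 1 to 4 and 116, 128, 120 and 115 CPM in dKO-N libraries 1 to 4, against 98.9, 106, 98 and 88.9 CPM in those labelled control 1 to 4. The sum of each knockout library lay above that of each library labelled control, without overlap, although 1 member of the 10 tested passed a test in 1 comparison. Taken singly, 0 of these 10 lay apart from the libraries labelled control in either knockout. Over all 23 tested members 8.7% lay apart in dKO-E and 4.35% in dKO-N, where 25.5% and 13% of all genes tested did. Group means were 115 ± 6.78 CPM in dKO-E, 120 ± 5.78 CPM in dKO-N and 97.9 ± 7.02 CPM in the libraries labelled control (SD, n = 4 each).

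**Figure D2:**
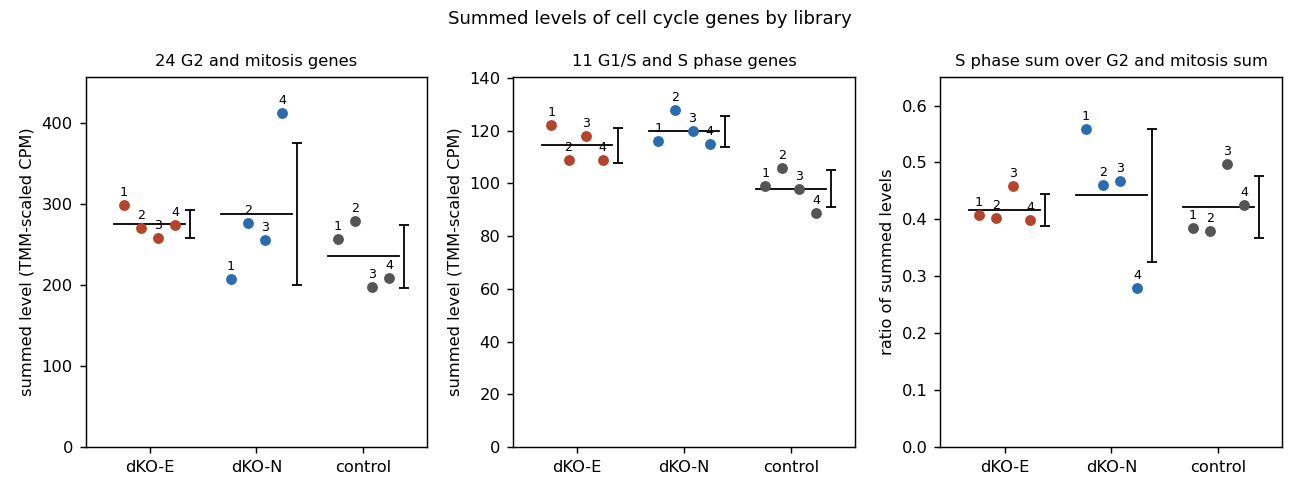
Summed TMM-scaled CPM of the 24 G2 and mitosis genes (left) and the 11 G1/S and S phase genes (middle), and the ratio of the S phase sum to the G2 and mitosis sum (right), for each library by group. Lines are means and bars are SD over 4 libraries; the S phase sums of the knockouts (109 to 128) lie above those of the libraries labelled control (88.9 to 106), and dKO-N 4 is the highest of all libraries in the left panel, at 412 CPM, and the lowest in the right panel, at a ratio of 0.28.

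Among the genes of the replication fork, Pcna encodes the sliding clamp and Mcm2 to Mcm7 the subunits of the replicative helicase, and 0 of these 7 passed the test in either knockout. Pcna had 9.8, 15.8, 9.38 and 10.6 CPM in dKO-E, 15.0, 14.9, 9.65 and 12.6 CPM in dKO-N, and 11.3, 7.46, 14.3 and 8.27 CPM in the libraries labelled control. All 3 groups overlapped (log2 fold change 0.14 ± 0.26 SE in dKO-E, edgeR adjusted p = 0.764, and 0.31 ± 0.28 SE in dKO-N, adjusted p = 0.564), and reads of Pcna may be shared with its 2 annotated pseudogenes. The helicase genes had log2 fold changes from -0.006 (Mcm7) to 0.59 (Mcm5, unadjusted p = 0.0426, adjusted p = 0.141) in dKO-E. In dKO-N they ran from -0.20 (Mcm4) to 0.53 (Mcm3, adjusted p = 0.447). The 6 subunits form 1 ring. The negative values among them lay within 1 SE of 0, so the subunits are not shown to differ in direction. They were Mcm3 (-0.004 ± 0.38 SE) and Mcm7 (-0.006 ± 0.17 SE) in dKO-E, and Mcm4 (-0.20 ± 0.31 SE) and Mcm6 (-0.12 ± 0.30 SE) in dKO-N. Each group's range overlapped the others for every subunit.

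Rrm2, the small subunit of ribonucleotide reductase that supplies deoxynucleotides in S phase, was the 1 called S phase gene. It had 7.84, 5.67, 7.03 and 3.92 CPM in dKO-E, 1.36, 12.1, 8.27 and 12.3 CPM in dKO-N, and 3.18, 5.33, 4.32 and 4.65 CPM in the libraries labelled control. In dKO-N, libraries 2, 3 and 4 were above all libraries labelled control and library 1 was below them, so the groups overlapped. The rise in dKO-N was 2.26-fold (95% interval 1.33 to 3.84, edgeR adjusted p = 0.0368), and in dKO-E the value was 1.42-fold (0.831 to 2.43, adjusted p = 0.389). Without the libraries labelled control 1 and 3 the dKO-N log2 fold change was 0.94 against 1.17 with all libraries, and the call was lost (adjusted p = 0.299). It was lost in 9 of 19 alternatives, 6 of which each leave out 1 library: any 1 of the 4 labelled control, dKO-N 2 or dKO-N 4, with log2 fold changes of 0.85 to 1.41 over all alternatives. Tyms, thymidylate synthase, had log2 fold changes of 0.48 in dKO-E and 0.38 in dKO-N, and Uhrf1, which reads half-methylated DNA after replication, 0.33 and 0.40 (adjusted p from 0.259 to 0.552).

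**Figure D3:**
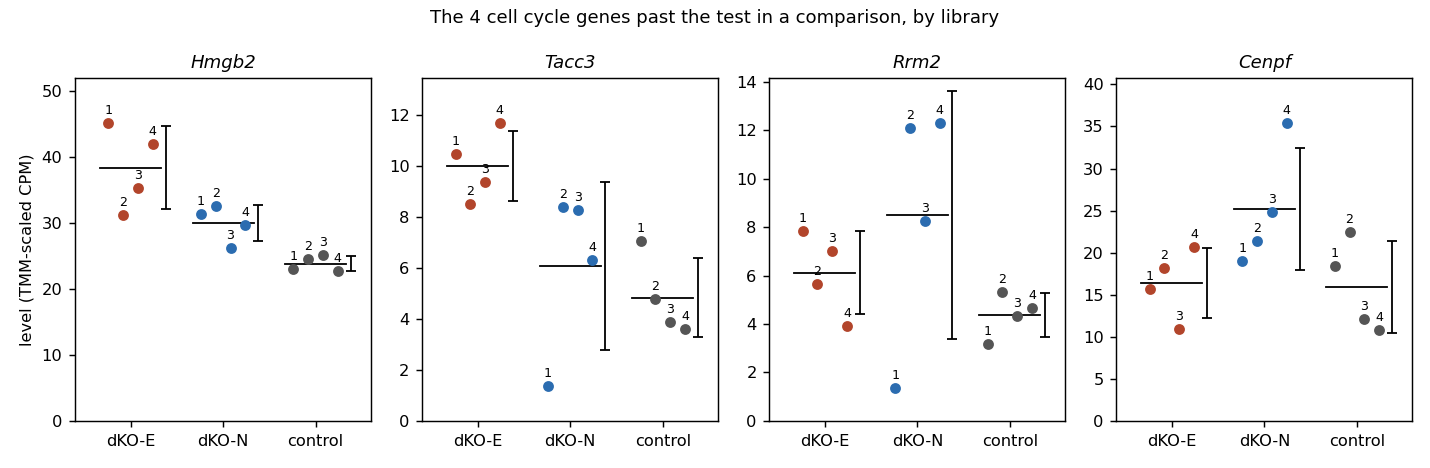
TMM-scaled CPM (y axis, from 0) of Hmgb2, Tacc3, Rrm2 and Cenpf, the 4 cell cycle genes past the test in a comparison, in each library by group, with lines for means and bars for SD over 4 libraries. Hmgb2 and Tacc3 in dKO-E (31.2 to 45.1 and 8.51 to 11.7) lie above every library labelled control, while Rrm2 in dKO-N runs from 1.36 to 12.3 and Cenpf in dKO-N from 19.0 to 35.4, overlapping the libraries labelled control.

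Among the chromosome proteins, Hmgb2 rose in dKO-E. Hmgb2, a DNA-bending HMG box protein abundant in dividing cells, had 45.1, 31.2, 35.2 and 41.9 CPM in dKO-E, 31.3, 32.6, 26.2 and 29.7 CPM in dKO-N, and 23.0, 24.5, 25.1 and 22.7 CPM in the libraries labelled control. All knockout libraries of both kinds lay above all libraries labelled control, and dKO-E and dKO-N overlapped each other. The rise in dKO-E was 1.59-fold (95% interval 1.28 to 1.97, edgeR adjusted p = 0.00167), and the dKO-N value was 1.26-fold (0.989 to 1.61, adjusted p = 0.246). The dKO-E call held in all 20 alternatives run, with log2 fold changes of 0.59 to 0.99 and adjusted p of 0.000325 to 0.0299. The highest of these p-values came without the libraries labelled control 1 and 3, where the log2 fold change was 0.68 against 0.67 with all libraries.

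Other chromosome proteins did not pass. Mki67, which coats mitotic chromosomes and is the usual marker of cycling cells, had 51.6, 61.2, 49.6 and 50.9 CPM in dKO-E, 35.4, 56.9, 51.0 and 92.2 CPM in dKO-N, and 50.5, 57.0, 41.0 and 48.6 CPM in the libraries labelled control. The dKO-E libraries overlapped those labelled control in part, with dKO-E 2 above all of those and the libraries labelled control 3 and 4 below every dKO-E library (1.09-fold, 95% interval 0.838 to 1.42, edgeR adjusted p = 0.693), and in dKO-N the highest and the lowest of all 12 libraries were both found (1.34-fold, 1.02 to 1.75, adjusted p = 0.182). Without dKO-N 4 the Mki67 log2 fold change in dKO-N was -0.015 against 0.42 with it, and without dKO-N 1 it passed the test (adjusted p = 0.0179). Top2a, the topoisomerase that untangles sister chromatids, had 29.4, 22.7, 25.4 and 21.8 CPM in dKO-E, 13.6, 28.0, 35.8 and 41.5 CPM in dKO-N, and 28.6, 37.8, 16.0 and 21.2 CPM in the libraries labelled control. Its groups overlapped, with 0.958-fold in dKO-E (0.678 to 1.35, adjusted p = 0.894; the direction turns with library totals, at a log2 fold change of 0.069 against -0.062) and 1.26-fold in dKO-N (0.886 to 1.8, adjusted p = 0.47). Smc4, a core subunit of condensin, had a log2 fold change of 0.42 in dKO-E (adjusted p = 0.125) and 0.43 in dKO-N (adjusted p = 0.197).

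Of the spindle genes, Tacc3 rose in dKO-E. Tacc3, which stabilises the microtubule fibres that hold kinetochores, had 10.5, 8.51, 9.38 and 11.7 CPM in dKO-E, 1.36, 8.39, 8.27 and 6.31 CPM in dKO-N, and 7.06, 4.79, 3.89 and 3.62 CPM in the libraries labelled control. Each dKO-E library lay above each library of the other groups, and dKO-N overlapped the libraries labelled control. The rise in dKO-E was 1.98-fold (95% interval 1.26 to 3.13, edgeR adjusted p = 0.027), against 1.26-fold in dKO-N (0.741 to 2.15, adjusted p = 0.664). The dKO-E call was lost in 7 of 19 alternatives, with log2 fold changes of 0.87 to 1.26. Those were the leave-outs of the libraries labelled control 2, 3 or 4, of dKO-E 3 or of dKO-E 4, the leave-out of those labelled control 1 and 3 together (1.22, adjusted p = 0.068) and the covariate for Y-linked counts (0.91, adjusted p = 0.156). Tacc3 (chr5:33658128-33678995, plus strand, GRCm38) shares exonic bases with Tmem129 on the other strand, and whether counting used strand is not stated. Kif11, the kinesin that pushes spindle poles apart, Tpx2, which activates Aurora A on the spindle, and Nusap1, a spindle microtubule binder, had log2 fold changes of 0.19, -0.097 and 0.36 in dKO-E and of 0.44, 0.53 and -0.062 in dKO-N, with adjusted p from 0.215 to 0.948.

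At the kinetochore, Cenpf rose in dKO-N. Cenpf, a large protein of the outer kinetochore made in G2 and mitosis, had 15.7, 18.2, 10.9 and 20.7 CPM in dKO-E, 19.0, 21.4, 24.8 and 35.4 CPM in dKO-N, and 18.4, 22.4, 12.1 and 10.8 CPM in the libraries labelled control. The libraries labelled control 1 and 2 lay within or just under the dKO-N range and those labelled 3 and 4 below it. The rise in dKO-N was 1.72-fold (95% interval 1.23 to 2.41, edgeR adjusted p = 0.0271), and in dKO-E the value was 1.02-fold (0.722 to 1.43, adjusted p = 0.963). Without dKO-N 4 the log2 fold change of Cenpf in dKO-N was 0.44 against 0.78 with it and the call was lost (adjusted p = 0.388). It was also lost without the library labelled control 3, without that labelled control 4, and without those labelled control 1 and 3 together (0.71, adjusted p = 0.191). The kinetochore motor Cenpe had a log2 fold change of -0.060 in dKO-E (adjusted p = 0.912) and 0.76 in dKO-N (adjusted p = 0.0641), and the scaffold Knl1 -0.094 (adjusted p = 0.853) and 0.41 (adjusted p = 0.408). Bub1b, a spindle checkpoint kinase homologue, had 11.1, 9.32, 6.25 and 5.59 CPM in dKO-E, 6.8, 5.6, 4.14 and 17.7 CPM in dKO-N, and 4.94, 6.92, 4.32 and 7.75 CPM in the libraries labelled control. Its dKO-N log2 fold change of 0.88 (adjusted p = 0.122) was -0.085 without dKO-N 4. Ccna2, cyclin A2 of S phase and G2, had the lowest fold changes of the members tested against control, -0.41 in dKO-E (adjusted p = 0.384) and -0.27 in dKO-N (adjusted p = 0.694).

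**Figure D4:**
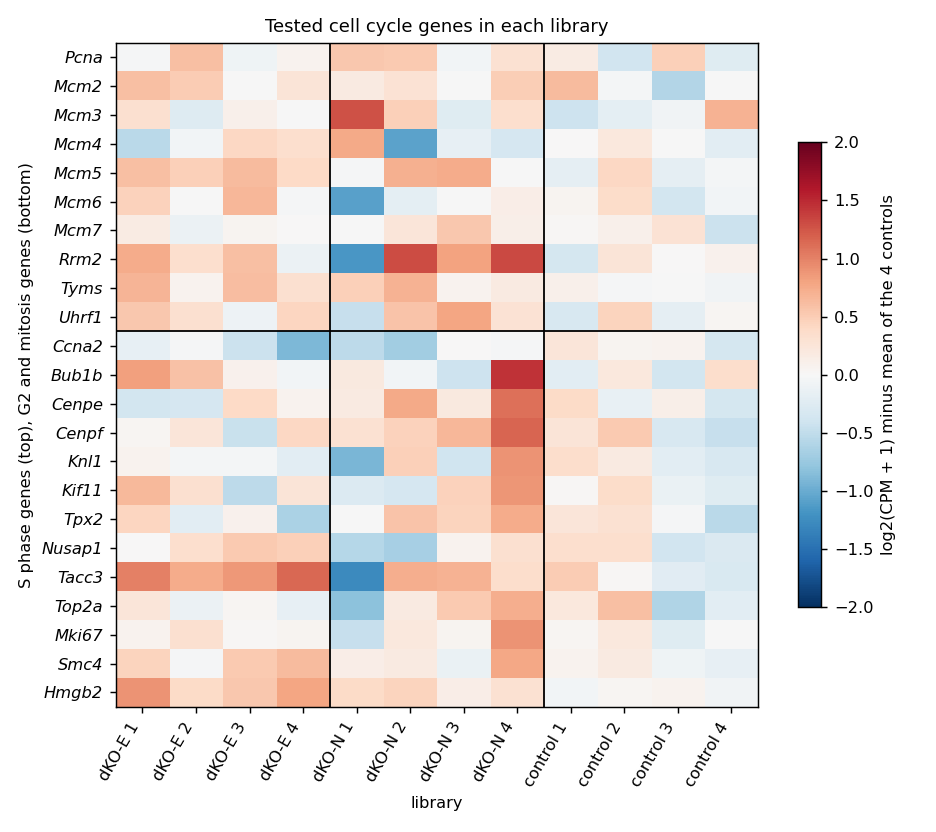
Level of each of the 23 tested cell cycle genes (y axis) in each of the 12 libraries (x axis), as log2(CPM + 1) minus the mean of the 4 libraries labelled control, from blue (lower) to red (higher). The block of G2 and mitosis genes is reddest in dKO-N 4, which was the highest dKO-N library for 10 of those 13 genes, and Hmgb2 and Tacc3 are red across dKO-E.

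The mitotic signal of dKO-N rested on 1 library. The 24 G2 and mitosis genes summed to 299, 270, 258 and 274 CPM in dKO-E, 207, 277, 256 and 412 CPM in dKO-N, and 257, 279, 197 and 209 CPM in the libraries labelled control. dKO-N 4, the deepest library, was the highest of its group for 10 of the 13 tested G2 and mitosis genes and for 3 of the 10 S phase genes, and the lowest for none of the 23. The S phase sum was 0.408, 0.402, 0.459 and 0.399 of the G2 and mitosis sum in dKO-E, 0.559, 0.461, 0.468 and 0.28 in dKO-N, and 0.384, 0.38, 0.498 and 0.426 in the libraries labelled control. Thus dKO-N held both the highest and the lowest ratio of the 12 libraries. Without dKO-N 4, 0 members were called in dKO-N. Of all 23 tested, S phase genes included, 15 were then positive and the median log2 fold change was 0.25. The 13 G2 and mitosis genes alone then ran from -0.51 (Nusap1) to 0.44 (Cenpf), on both sides of 0, with Mki67 at -0.015 and Top2a at 0.013.

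Between the knockouts, Cenpf was the 1 member called. Its log2 fold change, dKO-E over dKO-N, was -0.76 (0.591-fold, 95% interval 0.421 to 0.83, edgeR adjusted p = 0.0499), where 6.84% of all genes were called, 3.73% in the lower direction. This call sat at the threshold and was lost in 16 of 20 alternatives, with log2 fold changes of -0.88 to -0.40 and adjusted p of 0.028 to 0.5. Without dKO-N 4 it was -0.42 (adjusted p = 0.492), and without the libraries labelled control 1 and 3, which enter only through the shared fit, -0.75 (adjusted p = 0.0702). The other 22 members ran from -0.82 (Cenpe, adjusted p = 0.0634) to 0.65 (Tacc3, adjusted p = 0.272), and 8 of 23 were positive, with a median of -0.17. Without dKO-N 4 that median was 0.035 and 12 of 23 were positive. The difference between the knockouts was not past the test for Hmgb2 (0.33 ± 0.17 SE, adjusted p = 0.24) or Rrm2 (-0.67 ± 0.36 SE, adjusted p = 0.282), so neither gene's rise is shown to belong to 1 knockout.

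**Figure D5:**
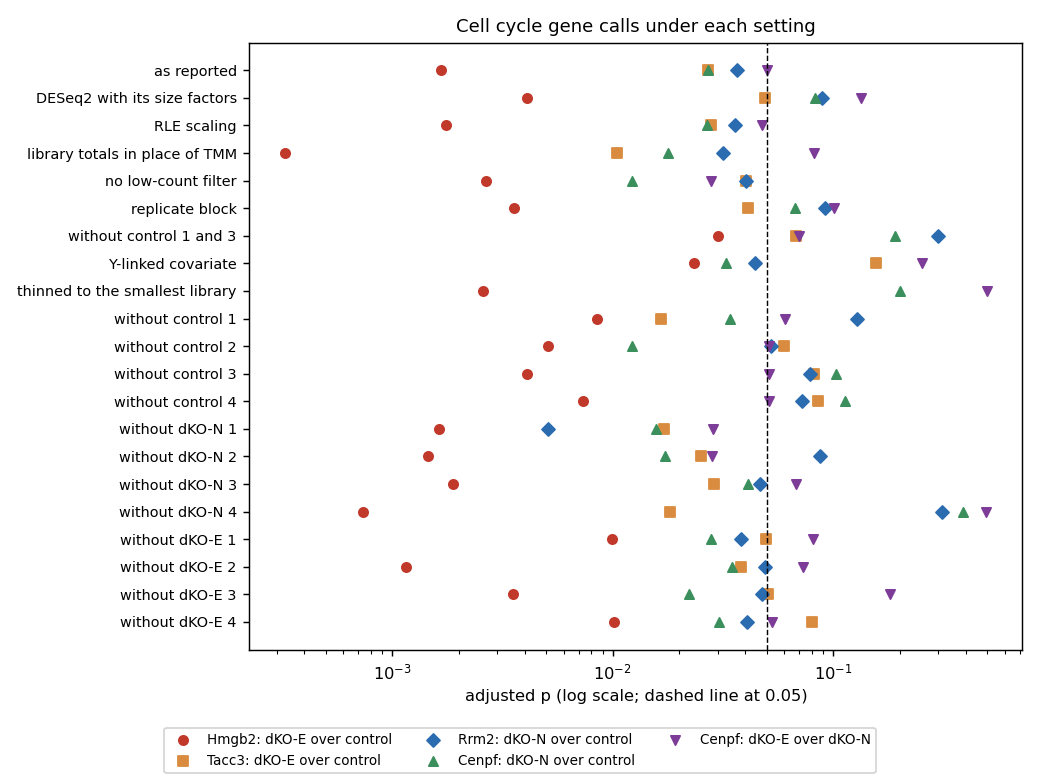
Adjusted p (x axis, log scale, dashed line at 0.05) of the 5 calls made on cell cycle genes under each setting of the processing (y axis). Hmgb2 in dKO-E stays left of the line in all settings (0.000325 to 0.0299), while Tacc3, Rrm2 and both Cenpf calls cross it in several; a gene has no point where the setting's filter left it untested.

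The 12 members below the count filter were mostly regulators of mitosis: Ccne1 (cyclin E1 of the G1/S step), Ccnb1, Ccnb2 and Cdk1 (the B cyclins and their kinase), Aurka, Aurkb, Bub1 and Plk1 (mitotic kinases), Birc5 and Cdca8 (partners of Aurora B), and Cdc20 and Ube2c (activator and ubiquitin carrier of the anaphase-promoting complex). They had 26 to 88 counts each over all 12 libraries. Cdk1 had 7.84, 3.65, 4.3 and 2.8 CPM in dKO-E, 1.36, 4.66, 0 and 3.3 CPM in dKO-N, and 4.24, 5.33, 2.59 and 3.1 CPM in the libraries labelled control. Ccnb1 had 4.57, 3.24, 1.56 and 4.47 CPM in dKO-E, 2.72, 1.87, 0 and 7.21 CPM in dKO-N, and 4.24, 2.13, 1.3 and 3.62 CPM in the libraries labelled control. Ccne1 had 1.96, 0.81, 1.56 and 2.24 CPM in dKO-E, 5.44, 4.66, 0 and 0.901 CPM in dKO-N, and 0.706, 1.6, 0 and 1.03 CPM in the libraries labelled control. All 3 overlapped between groups, many of their values lie at or under the floor of 3 counts, and dKO-N 3, a shallow library, had 5 of the 12 genes at 0. With no filter on counts, 0 of the 12 passed edgeR's test in any comparison: the lowest adjusted p against control was 0.118 (Aurka in dKO-E, log2 fold change 1.14), and 0.165 between the knockouts (Ccnb2, -1.38). At an unadjusted p under 0.05 these were Aurka in dKO-E (0.0142), Bub1 in dKO-N (0.0419) and Ccnb2 between the knockouts (0.0101). At levels this low, a missing call does not show that the mitotic kinases were unchanged.

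Of 207 other cell cycle genes listed by role, 144 were tested. In dKO-E 14 rose and 4 fell, and in dKO-N 9 rose and 0 fell (1 was lower at an unadjusted p under 0.05), with median log2 fold changes of 0.18 and 0.17. In dKO-E the rises made up 9.72% of the 144 and the falls 2.78%, where 10.1% of all genes were called in each direction. In dKO-N the rises made up 6.25% and the falls 0%, where 5.04% of all genes rose and 6.29% fell. The brakes of the cycle held the largest rise in dKO-E. Btg3, which restrains proliferation, had 35.3, 26.3, 27.4 and 36.4 CPM in dKO-E, 2.72, 22.4, 23.4 and 3.3 CPM in dKO-N, and 3.53, 8.52, 5.61 and 6.72 CPM in the libraries labelled control. Its dKO-E libraries stood above all others (log2 fold change 2.39 ± 0.48 SE, edgeR adjusted p = 0.00413), while dKO-N split into libraries 2 and 3 above and 1 and 4 below every library labelled control (0.82, adjusted p = 0.514). Wee1, the kinase that holds Cdk1 inactive before mitosis, had 7.84, 8.1, 12.1 and 16.2 CPM in dKO-E, 6.8, 6.53, 8.27 and 6.91 CPM in dKO-N, and 5.65, 2.13, 2.59 and 3.62 CPM in the libraries labelled control. Both knockouts lay above the libraries labelled control, with a rise in dKO-E of 1.59 on the log2 scale (± 0.34 SE, adjusted p = 0.00057) and a value of 0.94 in dKO-N (adjusted p = 0.131).

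Some spindle genes outside the set were called higher in each knockout, in small numbers. Of 24 tested genes of spindle motors and cytokinesis, 4 rose in dKO-E (16.7%, where 10.1% of all genes rose) and 5 rose in dKO-N (20.8%, where 5.04% of all genes rose), and 0 fell in either. These shares rest on few genes and were not tested as sets. Of 15 kinetochore and centromere genes 1 rose and 2 fell in dKO-E (6.67% and 13.3%, where 10.1% of all genes were called in each direction). Of 13 genes of the spindle checkpoint and anaphase 0 were called in either knockout (unadjusted p under 0.05 for 1 higher in each). Nuf2, a subunit of the NDC80 complex that binds microtubules, rose in dKO-E by 1.57 on the log2 scale (± 0.36 SE, edgeR adjusted p = 0.00149), and the spindle protein Ckap2 rose in dKO-E by 1.52 (± 0.37 SE, adjusted p = 0.00249) and in dKO-N by 1.23 (± 0.41 SE, adjusted p = 0.0424). Also in dKO-E, the centrosome kinase Nek2 rose by 1.56 and the kinesin Kif18b by 1.09 (adjusted p = 0.016 and 0.04), and the inner kinetochore genes Cenpt and Cenpc1 fell by 0.61 and 0.37 (0.0483 and 0.0428). In dKO-N, the kinase gene Melk rose by 1.35 and the centriole gene Stil by 1.02 (0.0217 and 0.0475). The dKO-N calls of Melk, Stil and Ckap2 were each lost without dKO-N 4. In the list of condensin and cohesin genes in dKO-E, the condensin subunit Ncapd2 fell by 0.42 and the cohesin subunit Rad21 rose by 0.29 (0.0356 and 0.0437).

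Some replication and G1 genes outside the set were called higher in each knockout, again in small numbers. Of 15 tested genes that license and fire replication origins, Gins1 and Mcm9 rose in dKO-E by 0.89 and 0.64 on the log2 scale (edgeR adjusted p = 0.0289 and 0.0359), and Mcm10 rose in dKO-N by 1.36 (0.0369). These rises made up 13.3% of the list in dKO-E and 6.67% in dKO-N, where 10.1% and 5.04% of all genes rose. Of 9 tested genes of nucleotide synthesis, Rrm2b, a ribonucleotide reductase subunit used outside S phase, fell in dKO-E by 0.90 (0.0102), and of 22 polymerase and fork genes 0 were called in either knockout (unadjusted p under 0.05 for 4 higher in dKO-E and 1 higher in dKO-N). Among 21 tested G1 cyclins, kinases, E2F and RB genes, 4 rose in dKO-E (19%, where 10.1% of all genes rose), 3 rose in dKO-N (14.3%, where 5.04% of all genes rose) and 0 fell in either. The 3 largest rises in dKO-E were of Ccnd1 by 0.90, E2f6 by 0.77 and Lin54 by 0.58 (0.0456, 0.0453 and 0.0215). In dKO-N, Tfdp2 rose by 0.57, Cdk6 by 0.56 and Ccnd2 by 0.45 (0.00372, 0.00559 and 0.0183). Tfdp2 was also called in dKO-E, with a rise of 0.425 (edgeR adjusted p = 0.0175). Tfdp2 in dKO-E was not followed under the alternatives. Of the other named calls of these lists, 4 of 16 in dKO-E held in every leave-out of 1 library (Btg3, Wee1, Nuf2 and Ckap2), and 0 of 7 in dKO-N did. Of these 4, Nuf2 and Ckap2 also held in all other alternatives, whereas Btg3 was lost without the libraries labelled control 1 and 3 (adjusted p = 0.0964) and Wee1 with the covariate for Y-linked counts (adjusted p = 0.0723). Without the libraries labelled control 1 and 3, 12 of the 16 dKO-E calls and 5 of the 7 dKO-N calls were lost, and without dKO-N 4 all 7 dKO-N calls were.

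Markers of dividing cell types were read beside these genes. The 8 radial glia markers had sums of 330 to 409 CPM in dKO-E, 365 to 435 CPM in dKO-N and 266 to 321 CPM in the libraries labelled control, with 1 of the 8 (Sox2) at 0 in all 12 libraries. Of the 5 tested, Vim rose in dKO-E by 0.50 on the log2 scale (edgeR adjusted p = 0.0204), and in dKO-N Pax6 rose by 0.98, Vim by 0.70 and Slc1a3 by 0.37 (adjusted p = 0.000629, 0.00318 and 0.0134). The rises made up 20% of the 5 in dKO-E and 60% in dKO-N, where 10.1% and 5.04% of all genes rose. The 5 markers of intermediate progenitors, the dividing cells between radial glia and neurons, had sums of 50.3 to 64.5 CPM in dKO-E, 75.4 to 86.7 CPM in dKO-N and 28.9 to 43.4 CPM in the libraries labelled control. None of the 5 was at 0 throughout a group, and the sums of the 3 groups did not overlap. Taken singly, 25% of the 4 tested lay apart from the libraries labelled control in dKO-E and 75% in dKO-N. Between the knockouts 0% did. Over all genes tested these shares were 25.5%, 13% and 10.2%. Of the 4 tested, Insm1 rose in dKO-E by 1.16 and in dKO-N by 1.57 (adjusted p = 0.000106 and 2.85e-06), and Mfng rose in dKO-N by 1.46 (0.0132). That is 25% of the 4 in dKO-E and 50% in dKO-N, where 10.1% and 5.04% of all genes rose. In dKO-E 3 of these 4 were positive, 1 was called and the lowest log2 fold change was -0.23, and in dKO-N all 4 were positive. The intermediate progenitor sum was thus highest in dKO-N, where the S phase sum overlapped that of dKO-E.

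Markers of other cells moved as well. The 4 excitatory neuron markers read here had sums of 600.0 to 665 CPM in dKO-E, 572 to 678 CPM in dKO-N and 521 to 596 CPM in the libraries labelled control, with dKO-E above the libraries labelled control and dKO-N overlapping them. Slc17a7, the vesicular glutamate transporter, fell by 1.49 in dKO-E and by 1.12 in dKO-N on the log2 scale (edgeR adjusted p = 6.6e-05 and 0.00727). Bcl11b, a transcription factor of deep-layer neurons, rose by 0.38 in dKO-E and by 0.30 in dKO-N (0.00371 and 0.0446). Microglia markers (6 genes) had sums of 18.8 to 43.8 CPM in dKO-E, 12.4 to 22.8 CPM in dKO-N and 10.9 to 15.1 CPM in the libraries labelled control, with C1qa at 0 in dKO-E and Csf1r up by 1.36 there (0.00793). Meningeal markers (5 genes) summed to 7.83 to 79 CPM in dKO-E, the highest in dKO-E 1, to 12.1 to 18 CPM in dKO-N, with Lum at 0, and to 9.05 to 14.5 CPM in the libraries labelled control. The sums of vessel markers were 62.1 to 81.6 CPM in dKO-E, 63.4 to 87.1 CPM in dKO-N and 89 to 96.6 CPM in the libraries labelled control, and those of oligodendrocyte precursor markers were 37.5 to 47.7 CPM in dKO-E, 37.2 to 60.7 CPM in dKO-N and 56.2 to 71.3 CPM in the libraries labelled control. In dKO-E the pericyte gene Rgs5 fell by 0.68 and the precursor gene Pdgfra by 0.71 (0.0302 and 0.0034). Sums of interneuron, astrocyte and red blood cell markers overlapped in all 3 groups. Aldh1l1 was up by 0.89 in dKO-E (0.00055), where 2 of the 5 astrocyte markers were positive, with a median of -0.015. Of the 8 marker calls in dKO-E, 4 held in all alternatives (Insm1, Slc17a7, Bcl11b and Aldh1l1), and 3 were lost without the libraries labelled control 1 and 3 (Vim, Rgs5 and Csf1r), while Pdgfra was lost with the covariate for Y-linked counts (adjusted p = 0.0579). Of the 7 in dKO-N, 2 held in all (Pax6 and Insm1), and 3 were lost without those 2 libraries (Slc1a3, Slc17a7 and Bcl11b). Without dKO-N 4 the dKO-N calls of Slc17a7 (then -0.66 on the log2 scale), Vim and Mfng were lost. Slc17a7 in dKO-N was also lost after thinning, Mfng without the library labelled control 4, and Bcl11b in 14 of 20 alternatives. The part of any of these cell types in the cell cycle values was not tested.

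Fold changes of the members can also be read by the motifs of their promoters, as a description. The 7 tested G2 and mitosis genes with a CHR element had a median log2 fold change of 0.12 in dKO-E and 0.42 in dKO-N, against 0.36 and 0.34 for the 3 without one. For the S phase genes, the 5 with an E2F motif had medians of 0.32 in dKO-E and 0.35 in dKO-N, against 0.37 and 0.34 for the 4 without. Hmgb2 and Tacc3, both raised in dKO-E, differed in that the Hmgb2 promoter held CHR elements and CCAAT boxes and the Tacc3 promoter none of the motifs. These medians rest on few genes and were not tested. Tpx2, Smc4, Ccna2 and Mcm4 passed the count filter, but no promoter was read for them, so they are not in these medians. Cenpe, counted as without a CHR element, held the variant TTTAAA.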

How the data were processed

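RNA was measured in 12 libraries of ribosome-depleted cortical RNA, made by ClickSeq per the labels' protocols. The authors deposited raw whole-number counts for each gene, with 1 file per library. Per the submitters' processing notes the authors used STAR, UMI-tools and HTSeq with mm10; the sources used here give no versions, annotation, strand setting or treatment of introns. Lines that name no gene stayed out: reads without a feature were 6.65% to 8.94% of a library, ambiguous reads 2.0% to 2.2% and multiply mapped reads 2.3% to 4.16%. Symbols came from GENCODE M21 by gene ID (51633 IDs, 99.5%), promoters from RefSeq.

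Counts were filtered with filterByExpr (minimum count 10; 11076 genes and 99% of counts kept), TMM-scaled and tested with the quasi-likelihood test of edgeR 4.0.16 (limma 3.58.1, R 4.3.3) in 1 fit of 12 libraries by group (9 residual degrees of freedom). P-values were adjusted by Benjamini-Hochberg over all genes tested (threshold 0.05). Standard errors (SE) and 95% intervals are single-gene and unadjusted; floors cover counting error only. Levels are TMM-scaled CPM. Alternatives were DESeq2 1.42.0, other scalings, no filter, a replicate block, thinning, a covariate for Y-linked counts, leaving out the libraries labelled control 1 and 3, and each library left out. The covariate split the libraries at 10 CPM of summed Y-linked transcripts, which set only dKO-E 3 and dKO-E 4 apart. With it, the dKO-E comparisons rest on dKO-E 1 and dKO-E 2. All 18 pairs of libraries within a group differed by more than sampling noise (chi-square over degrees of freedom 1.62 to 5.99). The pipeline was tested on simulated data. Figures used Python 3.11.15, pandas 2.3.3 and matplotlib 3.10.9.

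Named genes are all members past a test, Mki67, Top2a, Cdk1, Ccnb1, Pcna and Ccne1, up to 3 called genes of each other list per comparison with the largest change, and the targeted genes. Bub1b, the remaining members and Tfdp2 in dKO-E are given in addition. The members and lists were chosen with earlier results of these data known. One further excitatory neuron marker is not reported here and stayed out of the marker sum. Chromatin and single-nucleus assays named in the design text were not analysed here.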

Additional observations from a re-analysis of the deposited data

Results flagged for a closer look

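In groups of 4 libraries, a library far from the other 3 was looked for in 117 groups of values, and 2 stood apart by Dixon's criterion, where chance gives about 1 in 20. The sum of all cell cycle members was 421 CPM in dKO-E 1, against 376 to 383 CPM in the other dKO-E libraries. The ratio of the S phase sum to the G2 and mitosis sum was 0.459 in dKO-E 3, against 0.399 to 0.408 in the other dKO-E libraries.

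Differences between the 2 knockouts past edgeR's test of dKO-E over dKO-N, given as log2 fold changes, were -0.76 for Cenpf, a member, and in the other lists -0.89 for Rrm2b (nucleotide supply), -0.55 for E2f3 (an activator of S phase genes), -0.47 for Cdkn1b (the kinase inhibitor p27), -0.80 for Hjurp (the chaperone that loads CENP-A), 1.51 for Kif18b and -0.87 for Kif15 (kinesins), -0.44 for Numa1 (spindle poles) and -0.61 for Ncapd2 (condensin). Among cell type markers and targeted genes they were 0.70 for Aldh1l1 and 0.53 for H3f3b. The calls in the other cell cycle lists made up 5.56% of the 144 genes tested there, where 6.84% of all genes were called. Of the 8 named cell cycle genes outside the set, Numa1 was the 1 whose call held in every leave-out of 1 library, though it was lost with the covariate for Y-linked counts and after thinning (adjusted p up to 0.0688), and 0 of the 8 held in all alternatives. Numa1 had 137, 159, 152 and 140 CPM in dKO-E and 174, 171, 227 and 223 CPM in dKO-N, without overlap, which held for 10.2% of all genes tested.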

How the results depend on the processing

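Counts of members called moved by 1 or 2 genes under many settings. The 2 members called higher in dKO-N became 0 with DESeq2, with the replicate block, without the libraries labelled control 1 and 3 and with all libraries thinned to the smallest, and 0 to 4 when 1 library was left out. The 2 members called higher in dKO-E became 1 without the libraries labelled control 1 and 3, with the covariate for Y-linked counts and after thinning (1 to 2 in leave-outs). The 1 member lower between dKO-E and dKO-N became 0 with DESeq2, library totals, the replicate block, without the libraries labelled control 1 and 3, the Y-linked covariate and thinning (0 to 2 in leave-outs). Genes called over all genes, 1255 in dKO-N, were 756 without the libraries labelled control 1 and 3 and 751 after thinning (972 to 1298 in leave-outs). The 2238 genes of dKO-E were 1215 and 1234, and 1325 with the Y-linked covariate (1699 to 2753). The 758 genes between the knockouts were 500 with the replicate block, 223 with the Y-linked covariate and 307 after thinning (300 to 1036). The replicate block gave 1065 genes in dKO-N and 1974 in dKO-E. Replicate numbers were not taken as pairs, since the labels do not state that they pair libraries. Same-numbered libraries deviated from their group means with correlations of -0.12 to 0.01 over 12 pairs. Libraries with different numbers did so with -0.10 to 0.23 over 36 pairs. These correlations do not settle whether libraries were paired.

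The members' median log2 fold change stayed positive in both knockouts in every setting (leave-outs 0.14 to 0.24 in dKO-E, 0.25 to 0.49 in dKO-N) and between the knockouts ran from -0.29 to 0.035, the last without dKO-N 4. Without dKO-N 4, 4 of 23 members changed sign in dKO-N (Mki67, Kif11, Knl1 and Bub1b) and 8 between the knockouts. Over all alternatives, only the 4 called members, Mki67, Top2a and Pcna were followed singly, and their changes of sign, none of them called, were these. In dKO-N, Mki67 was -0.015 without dKO-N 4 (up to 0.56 in the other leave-outs) and Pcna -0.10 after thinning. In dKO-E, Top2a was 0.069 with library totals, 0.28 after thinning and -0.24 to 0.15 in leave-outs; Pcna was -0.085 to 0.32 in leave-outs, lowest without dKO-E 2; and Cenpf was -0.033 without the libraries labelled control 1 and 3 and -0.11 to 0.20 in leave-outs. Between the knockouts, Mki67 was 0.070 after thinning and -0.44 to 0.14 in leave-outs, highest without dKO-N 4, and Pcna 0.020 with the Y-linked covariate and 0.16 after thinning. Thinning left 11 members above the filter, so its lower counts follow from fewer genes and counts. The Y-linked covariate leaves the dKO-E comparisons to dKO-E 1 and dKO-E 2, so fewer libraries stand behind its lower counts of calls. The causes of the other changes were not tested. Shallow dKO-N libraries (722080 counts at the lowest) limit what can be seen of the mitotic kinases.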
